A study of Mus musculus with 8 samples.

Results

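The Bcl2 family genes described here are *Bcl2*, *Bcl2l1*, *Mcl1*, *Bax*, *Bak1*, *Bcl2l11*, *Bbc3*, *Pmaip1*, *Bid* and *Bad*. They were found as the rows of a table of RNA-seq read counts whose gene name equals one of these symbols, and they make up 10 of its 55247 rows. The table holds 8 libraries of back skin from wild-type female mice of 8 weeks (C57BL/6J in the sample labels, C57BL/6JJmsSlc in the study's methods), 1 library per mouse. Every mouse had received 100 μL of EL4 cells at 2000000 cells/mL under the skin on Day 0, which form tumors and are a line of T-cell lymphoma from the mouse. On Day 14, 0.1 mg of bexarotene was given into the peritoneum to 4 mice (Bexarotene 1 to 4), and the other 4 (Vehicle 1 to 4) received dimethyl sulfoxide in corn oil alone. Tissue was taken on Day 16 after this single dose. The comparison asks how expression in tumor-bearing skin differs with bexarotene, a drug that binds retinoid X receptors and is known to promote apoptosis of lymphoma cells. Each library mixes EL4 cells, which came from a C57BL/6 mouse, with infiltrating and skin cells of the host. Fewer cells of a type and less RNA per cell cannot be told apart in such tissue.

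Proteins of the Bcl2 family decide whether the outer mitochondrial membrane is opened to release cytochrome c, the step that starts the caspase cascade. The guardians BCL2, BCL-XL (from *Bcl2l1*) and MCL1 hold the pore formers BAX and BAK (from *Bak1*) in check. The BH3-only proteins BIM (from *Bcl2l11*), PUMA (from *Bbc3*), NOXA (from *Pmaip1*), BID and BAD engage the guardians with a helix called BH3, and BIM, PUMA and BID can also activate BAX and BAK directly. Much of their control lies in cleavage, phosphorylation and turnover of the proteins, which read counts do not measure.

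The BH3 coding stretches are shown because BH3 is what the members share in sequence and the helix with which the BH3-only proteins engage the guardians. The coding sequence of each gene's canonical transcript (GENCODE vM39, GRCm39) was translated and searched for a pattern of 6 codons, made of a leucine codon, a codon for arginine, lysine or alanine, 2 free codons, a codon for glycine, alanine or serine, and an aspartate codon. The pattern was written from known BH3 sequences of the family, so the match in 10 of 10 members is built in. It also matched 1851 of 21770 canonical coding sequences (8.5%). Below, the 18 matched bases are in capitals, with 12 bases in lower case on each side, read 5′ to 3′ on the coding strand, and each stretch lies inside 1 exon.
Bcl2 (chr1:106640302-106640343, minus strand, exon 1): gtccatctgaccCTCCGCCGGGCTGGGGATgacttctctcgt
Bcl2l1 (chr2:152671614-152671655, minus strand, exon 2): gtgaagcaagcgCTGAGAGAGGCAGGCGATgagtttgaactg
Mcl1 (chr3:95566735-95566776, plus strand, exon 1): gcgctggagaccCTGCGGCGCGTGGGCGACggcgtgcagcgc
Bax (chr7:45115418-45115459, minus strand, exon 3): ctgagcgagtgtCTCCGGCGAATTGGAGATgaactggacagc
Bak1 (chr17:27241502-27241543, minus strand, exon 4): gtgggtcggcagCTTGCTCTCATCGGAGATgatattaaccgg
Bcl2l11 (chr2:127989058-127989099, plus strand, exon 3): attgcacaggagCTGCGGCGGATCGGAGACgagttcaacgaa
Bbc3 (chr7:16047686-16047727, plus strand, exon 3): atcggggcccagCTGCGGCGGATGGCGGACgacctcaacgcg
Bid (chr6:120874247-120874288, minus strand, exon 4): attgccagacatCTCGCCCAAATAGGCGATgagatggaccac
Bad (chr19:6928148-6928189, plus strand, exon 2): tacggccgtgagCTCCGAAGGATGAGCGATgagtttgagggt
Of the 18 bases in capitals, *Bcl2l11* and *Bbc3* share 15, 14 are shared by *Bax* and *Bcl2l11*, by *Bbc3* and *Mcl1* and by *Bcl2l11* and *Mcl1*, and *Bax* and *Bcl2* share 13, whereas *Bak1* and *Bcl2l1* share 7. The leucine codon is codon 94 of 236 in *Bcl2*, 90 of 233 in *Bcl2l1* and 150 of 196 in *Bcl2l11*. No stretch is shown for *Pmaip1*.

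The libraries summed to between 8518428 and 18340980 counts in bexarotene-treated mice and to between 16196852 and 24020342 in vehicle-treated mice, but protein-coding genes held only 4.02% to 15.7% of them with bexarotene and 9.55% to 19.0% with vehicle. The 18S ribosomal RNA gene *Rn18s* held 54.8% to 58.6% of the counts with bexarotene and 50.8% to 59.8% with vehicle, although the labels describe ribosomal RNA depletion. Bexarotene 1 and Bexarotene 2 had 741328 and 342146 protein-coding counts, below the 2167482 to 4396334 of the other 6 mice. The 10 members together had 460, 178, 1568 and 1112 counts in Bexarotene 1 to 4, against 2610, 1124, 950 and 1571 in Vehicle 1 to 4. Values are CPM, a gene's counts relative to the size of its library after scaling with TMM (trimmed mean of M values) factors, and 1 count was worth 0.158 CPM in Bexarotene 1, 0.422 in Bexarotene 2 and 0.0199 to 0.0546 in the others. Summed T-lineage markers, which EL4 cells express, lay between 144 and 169 CPM with bexarotene and between 137 and 189 with vehicle. Keratinocyte markers, which define the labelled skin, summed to 30.0 to 78.7 CPM with bexarotene and 1.24 to 270 with vehicle, and were almost absent from Vehicle 4. Neutrophil markers summed to 0.845 to 4.01 CPM with bexarotene and 3.82 to 6.06 with vehicle, macrophage markers to 32.2 to 44.5 and, with vehicle, 19.4 to 76.9, endothelial markers to 12.7 to 19.4 and, with vehicle, 14.0 to 19.5, and muscle markers to 8.87 to 175 and, with vehicle, 31.3 to 97.8.

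No member differed between bexarotene-treated and vehicle-treated mice past the adjusted threshold of 0.05 (edgeR's quasi-likelihood test, Benjamini-Hochberg adjustment over all genes tested). The largest fitted differences were in the guardians *Bcl2*, at 1.72-fold, and *Mcl1*, at 1.61-fold, both higher with bexarotene. *Bcl2* was above the vehicle range in Bexarotene 1, 2 and 3, with its highest value in Bexarotene 3, and *Mcl1* only in Bexarotene 1 and 2. *Bak1*, *Bcl2l11* and *Bid* were fitted slightly lower with bexarotene.

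Over the whole table, 0 of 11616 genes tested (0%) passed the adjusted threshold in edgeR, 428 had an unadjusted p under 0.05, and limma-voom called 0 of 11616. DESeq2, run without the low-count filter used for edgeR, tested 25499 genes and called 3, none of them a member. Of the members, 9 passed the filter on low counts, and *Pmaip1*, which did not, was read from a fit without the filter. Of the 10 members, 0 passed the adjusted threshold and 1, *Bcl2*, had an unadjusted p under 0.05. Among all genes tested, 2.38% were higher and 1.3% were lower with bexarotene at that unadjusted level. No member had every bexarotene-treated mouse above every vehicle-treated mouse, or below, which 1.41% and 1.42% of genes did. Of the 9 tested members, 6 had a fitted fold change above 0, beside 46.5% of all genes. Their median log2 fold change was 0.15, against −0.03 over all genes tested. Under scaling by total counts alone these directions changed, with 1 of 9 tested members higher and 8 lower, a median of −0.49 and a median over all genes of −0.66.

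**Figure D1:**
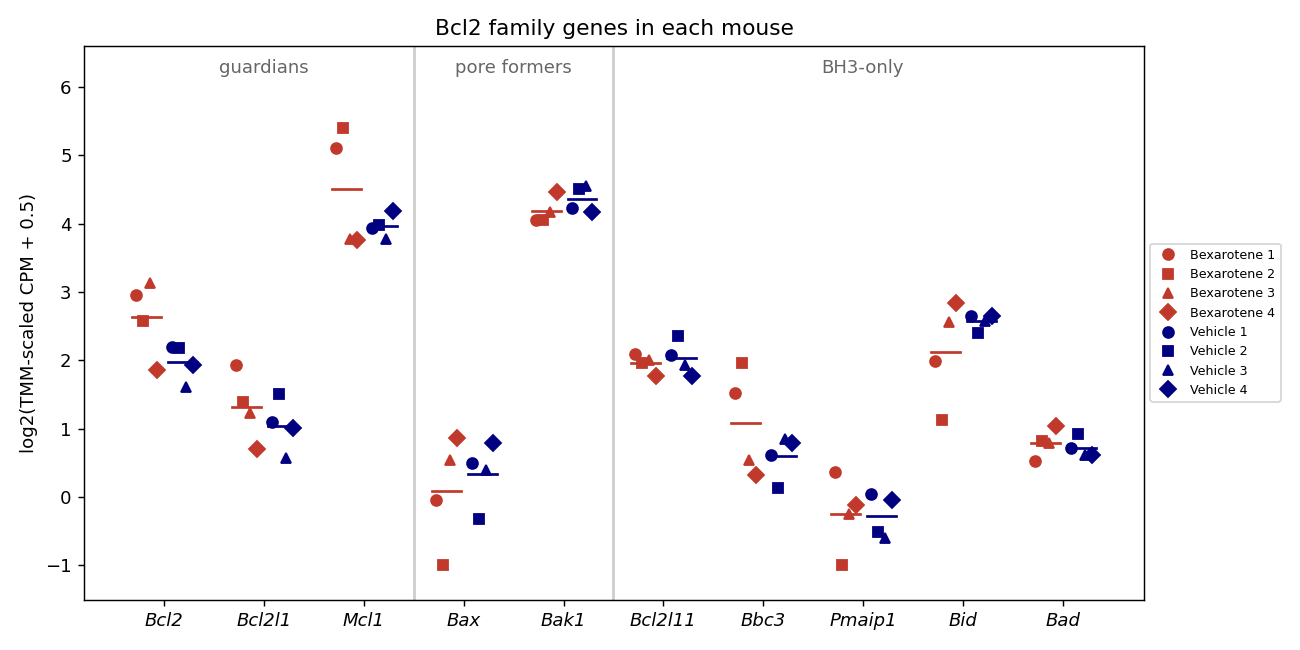
Expression of each Bcl2 family gene in each mouse, as log2 of TMM-scaled CPM plus 0.5 (vertical axis), with genes along the horizontal axis grouped by role, bexarotene-treated mice in red left of vehicle-treated mice in dark blue, 1 symbol per mouse number and short lines at group means. The 2 groups overlap for every gene, and *Mcl1* lies apart only in Bexarotene 1 and 2, at 34.1 and 41.8 CPM.

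*Bcl2*, the founding guardian of the family, had 7.26, 5.49, 8.26 and 3.11 CPM in Bexarotene 1 to 4, against 4.07, 4.03, 2.57 and 3.32 CPM in Vehicle 1 to 4. Bexarotene 1, 2 and 3 lay above every vehicle-treated mouse, and Bexarotene 4 lay among them. The mean was 6.03 ± 2.26 CPM with bexarotene and 3.50 ± 0.710 CPM with vehicle (SD, n = 4 each). This is a fitted log2 fold change of 0.78 (standard error 0.30, 95% interval 0.13 to 1.44, adjusted p = 0.976 in edgeR, unadjusted 0.0231). The 2-sided exact permutation test over the 70 assignments of mice gave p = 0.114, where 0.0286 is the smallest p it can give. In every one of 20 alternative settings *Bcl2* was fitted higher with bexarotene, between 0.10 (scaling by total counts) and 1.06 (without Bexarotene 4) on the log2 scale, and no adjusted p was below 0.665. Without Bexarotene 1 and 2 the value was 0.71. Bexarotene 2 held only 13 counts of *Bcl2*, with a 95% exact Poisson interval from 2.92 to 9.39 CPM that reaches into the vehicle range. Intervals of this kind cover counting error only.

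*Mcl1*, the short-lived guardian on which many lymphoid cells depend, had 34.1, 41.8, 13.3 and 13.0 CPM in Bexarotene 1 to 4, against 14.8, 15.3, 13.2 and 17.6 CPM in Vehicle 1 to 4. The 2 shallow libraries were high and the remaining bexarotene-treated mice lay within or just below the vehicle range. The counts behind the high values were 216 and 99, with 95% exact Poisson intervals of 29.7 to 38.9 and 34 to 50.9 CPM, which do not reach the values of the other mice. *Mcl1* was fitted 0.69 higher on the log2 scale (standard error 0.36, 95% interval −0.09 to 1.47, adjusted p = 0.976, edgeR). Without Bexarotene 1 and 2 it was −0.20, and under total-count scaling it was −0.43. Summed fibroblast markers (5 genes, none at 0 in every mouse) were also highest in these 2 libraries, at 879 and 1682 CPM, beside 375 and 491 in Bexarotene 3 and 4 and 261 to 778 with vehicle. Their part in the *Mcl1* values, and that of the low protein-coding depth, was not tested.

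*Bcl2l1*, which encodes the guardian BCL-XL, was expressed at a low level, with 3.31, 2.11, 1.84 and 1.13 CPM in Bexarotene 1 to 4, against 1.65, 2.34, 0.983 and 1.51 CPM in Vehicle 1 to 4. Bexarotene 1 alone lay above the vehicle range, on 21 counts. Its fitted log2 difference was 0.29 (standard error 0.38, 95% interval −0.54 to 1.12, adjusted p = 0.985, edgeR). It was −0.02 without Bexarotene 1.

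**Figure D2:**
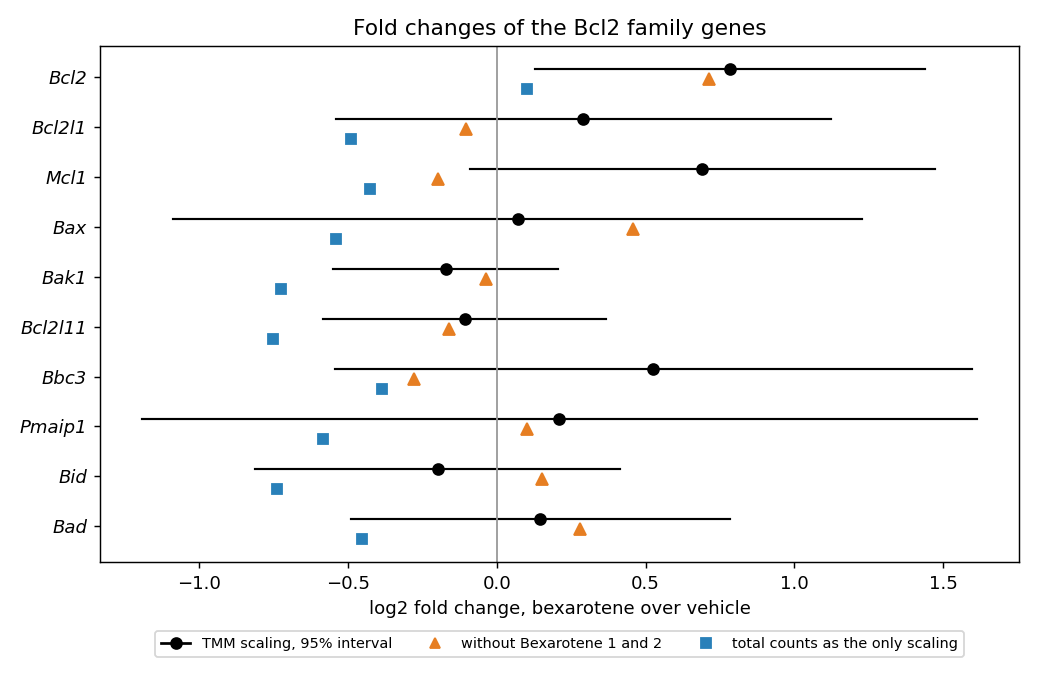
Log2 fold changes of the 10 genes, bexarotene over vehicle (horizontal axis), 1 gene per row. Circles with lines give edgeR values with TMM scaling and their 95% intervals, triangles the values without Bexarotene 1 and 2, and squares the values under total-count scaling. The interval of *Bcl2*, 0.13 to 1.44, is the only one that leaves out 0, and the triangles of *Mcl1*, *Bcl2l1*, *Bbc3* and *Bid* lie on the other side of 0 from their circles, as do the squares of *Bcl2l1*, *Mcl1*, *Bax*, *Bbc3*, *Pmaip1* and *Bad*.

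*Bak1*, a pore former that sits in the mitochondrial membrane, was measured most precisely. It had 16.1, 16.0, 17.5 and 21.6 CPM in Bexarotene 1 to 4, against 18.2, 22.3, 23.0 and 17.4 CPM in Vehicle 1 to 4. Bexarotene 1 and 2 lay just below the vehicle range and the other bexarotene-treated mice inside it. The mean was 17.8 ± 2.59 CPM with bexarotene and 20.2 ± 2.85 CPM with vehicle (SD, n = 4 each), which is −0.17 on the log2 scale (standard error 0.17, 95% interval −0.55 to 0.21, adjusted p = 0.979, edgeR). It was fitted lower with bexarotene in every one of 20 alternatives, but by only −0.04 without Bexarotene 1 and 2. Under total-count scaling it was −0.72, beside a median of −0.66 over all genes. *Bak1* shares 437 of its 2407 exonic bases with the antisense gene *Ggnbp1*, and whether reads were counted by strand is not given in the sources used here. On the same strand, *Bax* shares 192 of 1856 exonic bases with *Gm45808*, and *Bcl2l11* shares 69 of 10112 with *Gm74510*. Antisense genes overlap 558 of 9213 exonic bases of *Bcl2* and 476 of 5136 of *Bcl2l1*. These overlaps are from GENCODE vM39, which may differ from the gene models that were counted.

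*Bax*, the pore former that moves from the cytosol to mitochondria, was near the limit of detection in the shallow libraries. It had 0.473, 0, 0.952 and 1.32 CPM in Bexarotene 1 to 4, from 3, 0, 28 and 28 counts, against 0.913, 0.298, 0.819 and 1.24 CPM in Vehicle 1 to 4, from 46, 6, 15 and 37 counts. The groups covered nearly the same range, with Bexarotene 2 lowest and Bexarotene 4 highest. The 0 in Bexarotene 2 allows up to 1.27 CPM (3 counts), more than any vehicle-treated mouse had. The log2 fold change was 0.07 with a 95% interval from −1.09 to 1.23, so neither a lower nor a higher level was detectable in these libraries. The parts of depth and of the spread between mice in this interval were not tested.

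Among the BH3-only genes, *Bcl2l11*, whose product BIM is needed for the death of many lymphocytes, was the steadiest. It had 3.79, 3.38, 3.53 and 2.92 CPM in Bexarotene 1 to 4, against 3.73, 4.62, 3.33 and 2.91 CPM in Vehicle 1 to 4. All bexarotene-treated mice lay inside the vehicle range, but Bexarotene 1 and 2 rested on 24 and 8 counts. Their 95% exact Poisson intervals, 2.43 to 5.63 and 1.46 to 6.66 CPM, extended past the vehicle range on both sides. Bexarotene over vehicle gave a log2 value of −0.11 (standard error 0.22, 95% interval −0.58 to 0.37, adjusted p = 1, edgeR).

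*Bbc3*, which encodes the p53 target PUMA, had 2.37, 3.38, 0.952 and 0.755 CPM in Bexarotene 1 to 4, against 1.03, 0.597, 1.31 and 1.24 CPM in Vehicle 1 to 4. As for *Mcl1*, the 2 shallow libraries lay above the vehicle range and the others inside it, here on only 15 and 8 counts. The 95% exact Poisson intervals were 1.32 to 3.90 CPM in Bexarotene 1 and 1.46 to 6.66 CPM in Bexarotene 2. The fitted log2 difference of 0.53 (edgeR, standard error 0.49, adjusted p = 0.976) was −0.28 without these 2 mice.

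*Bid*, whose product is cleaved by caspase-8 and carries the death receptor signal to mitochondria, had 3.47, 1.69, 5.40 and 6.65 CPM in Bexarotene 1 to 4, against 5.80, 4.77, 5.46 and 5.79 CPM in Vehicle 1 to 4. It ran opposite to *Bbc3*, with Bexarotene 1 and 2 below the vehicle range and Bexarotene 4 above it. The 2 low values rested on 22 and 4 counts. The 95% exact Poisson interval was 2.18 to 5.25 CPM in Bexarotene 1, which reaches into the vehicle range, and 0.46 to 4.33 CPM in Bexarotene 2. The fitted difference was −0.20 on the log2 scale (standard error 0.28, 95% interval −0.81 to 0.41, adjusted p = 0.99, edgeR), and 0.15 without Bexarotene 1 and 2. In GENCODE vM39, 3059 of the 9796 exonic bases of *Bid* overlap the antisense relative *Bcl2l13*. The deposited length of *Bid* is only 3550 bases, so the overlapping share of the bases that were counted is not known.

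*Bad*, whose product is held inactive by phosphorylation under growth factor signals, had 0.947, 1.27, 1.22 and 1.56 CPM in Bexarotene 1 to 4, against 1.15, 1.39, 1.04 and 1.04 CPM in Vehicle 1 to 4. The 2 ranges were close to each other. The fit gave a log2 fold change of 0.15 (standard error 0.29, 95% interval −0.49 to 0.78, adjusted p = 1, edgeR). In GENCODE vM39 *Bad* shares 914 of 4485 exonic bases with the antisense gene *Gpr137*. Its deposited length is 2611 bases, so here too the share of the counted bases is not known.

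*Pmaip1*, which encodes the MCL1 partner NOXA, was the lowest member, with 0.789, 0, 0.340 and 0.424 CPM in Bexarotene 1 to 4 and 0.536, 0.199, 0.164 and 0.469 CPM in Vehicle 1 to 4. It had 72 counts over all 8 mice. The 0 in Bexarotene 2 again allows up to 1.27 CPM, above the highest mouse. The log2 fold change in the fit without the filter was 0.21 (standard error 0.68, 95% interval −1.19 to 1.61).

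Levels of different genes were compared as CPM per kb of the deposited gene length. Over all 8 mice *Bak1* was highest, at 7.90 ± 1.18 CPM per kb, followed by *Mcl1* at 5.81 ± 3.18 and *Bid* at 1.37 ± 0.447 (SD, n = 8). *Bak1* exceeded *Mcl1* in 2 of 4 bexarotene-treated mice and in 4 of 4 vehicle-treated mice, and *Mcl1* exceeded *Bid* in 8 of 8. In the group means *Mcl1* reached 7.28 ± 4.18 CPM per kb with bexarotene and 4.34 ± 0.529 with vehicle, and *Bak1* reached 7.40 ± 1.08 with bexarotene and 8.41 ± 1.18 with vehicle (SD, n = 4 each). The next 6 genes lay close together, between 0.660 CPM per kb for *Bbc3* and 0.405 for *Bcl2l1*, and *Pmaip1* was last at 0.126. Neighbours among these 6 kept their order in 4 to 6 of 8 mice, so their order was not resolved. With the length of the canonical transcript in place of the deposited length (chosen after seeing the data), *Bak1*, *Mcl1* and *Bid* were still the top 3 genes and *Pmaip1* the last, but *Bad* came next at 1.01 CPM per kb and *Bbc3* last but one at 0.542.

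**Figure D3:**
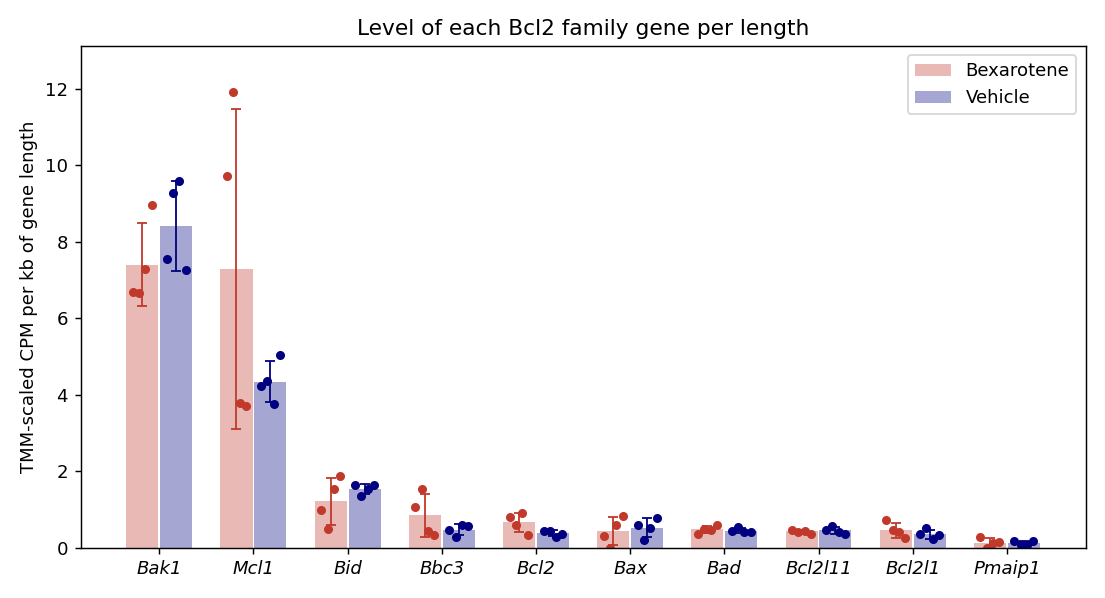
Levels of the 10 genes in each mouse, in TMM-scaled CPM per kb of gene length (vertical axis), with bexarotene-treated mice left of vehicle-treated mice. Points are mice, bars are group means and error bars are 1 SD. *Bak1* and *Mcl1*, at 7.90 and 5.81 CPM per kb over all mice, stand apart from the rest, and *Bid* follows at 1.37.

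The guardians together made up 41.7% ± 15.9 of the summed CPM per kb of the family with bexarotene and 29.8% ± 3.92 with vehicle (SD, n = 4 each). The share was 52.5%, 57.5%, 31.9% and 24.7% in Bexarotene 1 to 4, against 30.7%, 30.3%, 24.5% and 33.9% in Vehicle 1 to 4. It was high in Bexarotene 1 and 2 alone, where *Mcl1* was high, and in the other bexarotene-treated mice it lay within the vehicle range. The pore formers made up 42.0% ± 12.9 with bexarotene and 52.4% ± 4.68 with vehicle, and *Bax* alone 2.50% with bexarotene and 3.07% with vehicle. The BH3-only genes had a share of 16.4% ± 3.01 with bexarotene and 17.8% ± 1.57 with vehicle. These shares are given as a description, with no test.

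**Figure D4:**
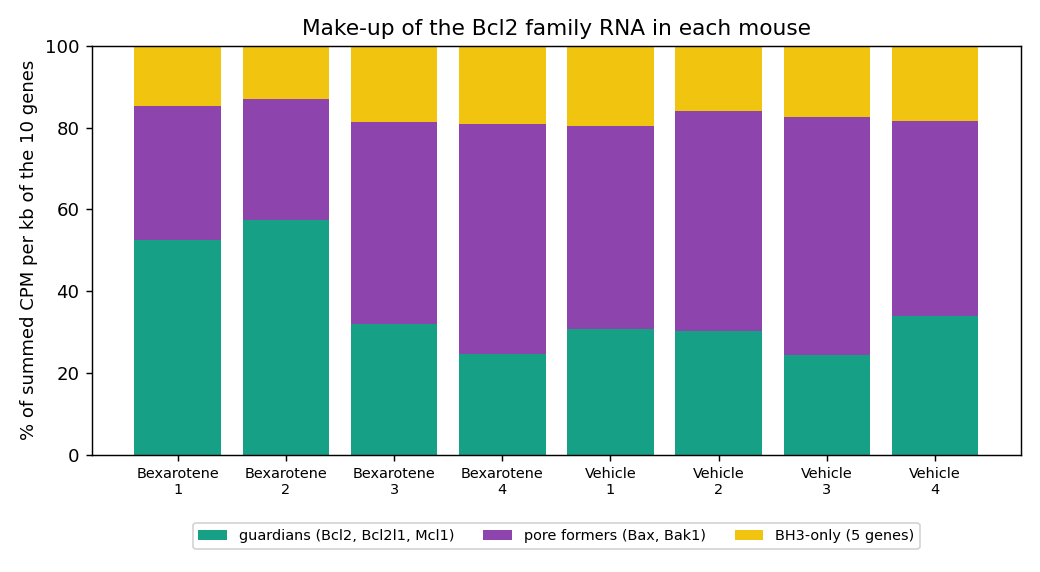
Share of the summed CPM per kb of the 10 genes held by guardians, pore formers and BH3-only genes (vertical axis, percent) in each mouse, bexarotene-treated mice left of vehicle-treated mice. Guardians hold 52.5% and 57.5% in Bexarotene 1 and 2 and between 24.5% and 33.9% in the other 6 mice.

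Ratios of a pro-apoptotic to a guardian gene inside a library do not depend on the scaling between libraries. The log2 ratio of *Bax* to *Bcl2* (counts per kb, 0.5 counts added to each gene) was −1.19, −2.22, −0.56 and 1.32 in Bexarotene 1 to 4, against 0.39, −1.11, 0.92 and 1.13 in Vehicle 1 to 4. Bexarotene 4 had the highest ratio of all mice and Bexarotene 2, with no *Bax* count, the lowest. The means were −0.66 ± 1.49 with bexarotene and 0.33 ± 1.01 with vehicle (SD, n = 4 each), a difference of −0.997 (exact permutation test, 2-sided, p = 0.343, adjusted p = 0.343 over 3 ratios).

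The log2 ratio of *Bcl2l11* to *Mcl1* was −4.34, −4.74, −3.10 and −3.34 in Bexarotene 1 to 4, against −3.18, −2.92, −3.17 and −3.79 in Vehicle 1 to 4. Bexarotene 1 and 2 were lowest and the other 2 lay within the vehicle range, for a difference of −0.62 (2-sided exact permutation test, p = 0.229, adjusted p = 0.343). The ratio of the guardians *Bcl2l1* and *Bcl2* differed by −0.36 on the log2 scale (−0.50 ± 0.46 with bexarotene and −0.14 ± 0.26 with vehicle, SD, n = 4 each, exact permutation test, p = 0.286, adjusted p = 0.343). Without Bexarotene 1 and 2 the first 2 differences were 0.05 and 0.04, and that of *Bcl2l1* to *Bcl2* was −0.66 (exact permutation test, p = 0.0667, the smallest it can give with these mice, adjusted p = 0.2). Leaving out 1 mouse at a time, the differences ranged from −1.66 (without Bexarotene 4) to −0.48 (without Bexarotene 2) for *Bax* to *Bcl2*, from −0.88 (without Bexarotene 3) to −0.33 (without Bexarotene 2) for *Bcl2l11* to *Mcl1*, and from −0.49 (without Bexarotene 1) to −0.14 (without Bexarotene 3) for *Bcl2l1* to *Bcl2*.

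**Figure D5:**
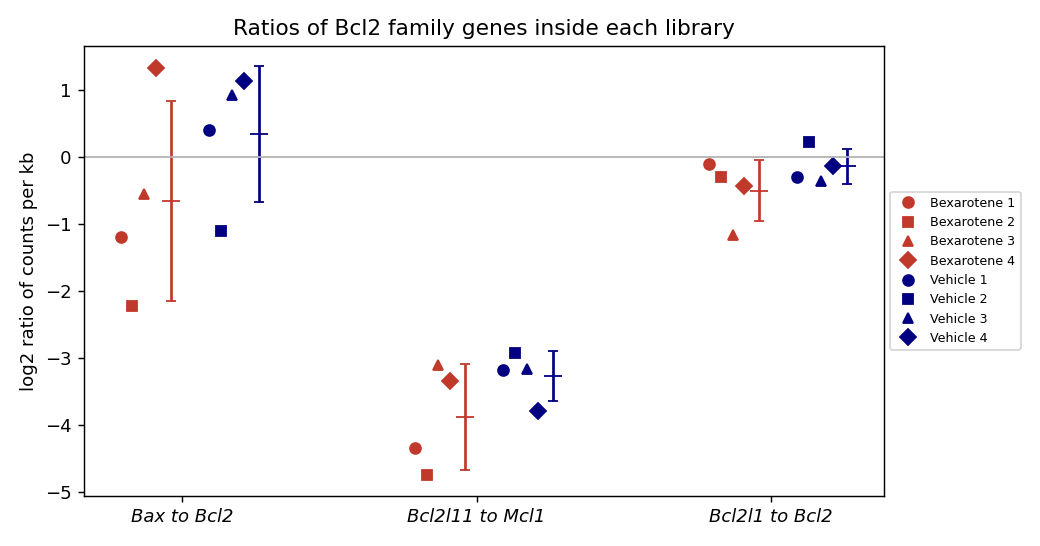
Log2 ratios of gene pairs inside each library (vertical axis, counts per kb with 0.5 counts added), bexarotene-treated mice left of vehicle-treated mice, with 1 symbol per mouse number and, beside them, group means with error bars of 1 SD. The groups overlap in all 3 ratios, and the differences of the means are −0.997, −0.62 and −0.36.

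The wider pathway was read from 7 lists of 64 genes, of which 52 passed the filter. Of these 52, 0 passed the adjusted threshold in either direction and 0 had an unadjusted p under 0.05 in edgeR, while 27 were fitted higher and 25 lower, with a median log2 fold change of 0.02. Medians per list ran from −0.19 for 7 regulators of member levels to 0.35 for 5 inhibitors of apoptosis. No adjusted p among the genes named below was under 0.976.

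Downstream of the pore, *Endog*, a mitochondrial endonuclease, had 1.58, 4.22, 0.340 and 0.943 CPM in Bexarotene 1 to 4, against 0.437, 0.497, 0.382 and 0.636 CPM in Vehicle 1 to 4. Bexarotene 1, 2 and 4 were above the vehicle range, on 10 to 20 counts each, and Bexarotene 3 below it, for a log2 fold change of 1.39 (standard error 0.64). *Htra2*, a mitochondrial protease that counters inhibitors of apoptosis, averaged 2.86 ± 0.549 CPM with bexarotene and 1.91 ± 0.576 CPM with vehicle (SD, n = 4 each). *Vdac1*, an abundant channel of the outer mitochondrial membrane, averaged 23.8 ± 2.29 CPM with bexarotene and 23.9 ± 3.63 CPM with vehicle.

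Among the caspases, *Casp8*, the initiator at death receptors, averaged 3.72 ± 0.668 CPM with bexarotene and 3.99 ± 0.544 CPM with vehicle (SD, n = 4 each). *Casp9*, the initiator at the apoptosome, averaged 2.03 ± 0.688 CPM with bexarotene and 1.56 ± 0.229 CPM with vehicle, and the groups overlapped for both genes. Among the inhibitors of apoptosis, *Birc5* (survivin, which also serves cell division) averaged 3.69 ± 0.754 CPM with bexarotene and 2.75 ± 0.449 CPM with vehicle, *Birc3* averaged 2.14 ± 0.717 CPM with bexarotene and 2.98 ± 0.378 CPM with vehicle, and *Birc6* averaged 58.5 ± 20.6 CPM with bexarotene and 66.5 ± 5.05 CPM with vehicle.

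Of the 52 pathway genes tested, 2 had groups that did not overlap, *Tnfrsf10b* and *Vdac3*, both with every bexarotene-treated mouse below every vehicle-treated mouse, as for 1.42% of all genes tested. *Tnfrsf10b*, which encodes the mouse receptor for TRAIL, had 1.26, 1.27, 1.16 and 1.08 CPM in Bexarotene 1 to 4, from 8, 3, 34 and 23 counts, against 1.71, 1.69, 1.37 and 1.44 CPM in Vehicle 1 to 4. It was lowest in Bexarotene 4 and highest in Vehicle 1, and the fitted difference was −0.41 on the log2 scale (standard error 0.26, adjusted p = 0.976, edgeR). *Vdac3*, a channel of the outer mitochondrial membrane named here after its values were seen, had 2.11 to 3.74 CPM with bexarotene and 3.78 to 5.06 CPM with vehicle (log2 fold change −0.37, adjusted p = 0.976, edgeR). *Tradd*, an adaptor of the TNF receptor, averaged 2.51 ± 2.07 CPM with bexarotene and 1.06 ± 0.186 CPM with vehicle (SD, n = 4 each), with 3.31 and 5.07 CPM in Bexarotene 1 and 2 alone above the vehicle range. *Tnfrsf1a*, the receptor itself, averaged 6.19 ± 1.77 CPM with bexarotene and 5.83 ± 2.47 CPM with vehicle.

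Of the genes that act on the members' levels, *Fbxw7*, a ubiquitin ligase subunit that recognizes MCL1, had 6.31, 6.76, 3.26 and 3.87 CPM in Bexarotene 1 to 4, against 3.38, 3.38, 3.60 and 2.41 CPM in Vehicle 1 to 4 (log2 fold change 0.57, standard error 0.27). As for *Mcl1* and *Bbc3*, Bexarotene 1 and 2 stood highest. *Usp9x*, which removes ubiquitin from MCL1, averaged 28.1 ± 8.33 CPM with bexarotene and 34.4 ± 2.95 CPM with vehicle (SD, n = 4 each), and the stress regulator *Atf4* averaged 18.05 ± 4.07 CPM with bexarotene and 21.8 ± 6.32 CPM with vehicle. Of the p53 targets, *Zmat3* averaged 10.1 ± 9.43 CPM with bexarotene and 5.52 ± 1.16 CPM with vehicle, with 24.1 CPM in Bexarotene 2. *Ccng1* averaged 12.3 ± 2.33 CPM with bexarotene and 15.6 ± 3.17 CPM with vehicle, and *Perp* averaged 17.3 ± 12.7 CPM with bexarotene and 17.5 ± 6.68 CPM with vehicle. Among other relatives of the family, the BH3-only gene *Bmf* averaged 1.55 ± 1.23 CPM with bexarotene and 0.964 ± 0.232 CPM with vehicle, and *Bcl2l12* averaged 2.60 ± 1.66 CPM with bexarotene and 1.81 ± 0.635 CPM with vehicle, both highest in Bexarotene 2.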

How the data were processed

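RNA from 8 tumor-bearing skin samples was sequenced with a directional kit after a ribosomal RNA depletion step, per the labels. Per the submitters' processing notes and the study's methods, the authors used Trimmomatic 0.30, FastQC 0.11.9, HISAT2 2.0.1 (another version in the methods), GRCm39, HTSeq 0.6.1 and DESeq2. The deposited values are raw read counts per gene, unscaled and unfiltered, beside gene lengths. Of 55247 rows, 1728 unnamed regions held 25.6% of counts and stayed in the tests, with a fit without them as an alternative. No 2 columns held identical values.

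Counts were analysed in R 4.3.3 with edgeR 4.0.16 (TMM, filterByExpr with minimum count 10 and minimum total 15, quasi-likelihood test without covariates, Benjamini-Hochberg adjustment over 11616 genes), limma 3.58.1 and DESeq2 1.42.0. Library sizes were recomputed after the filter, a choice made after a first run that changed no call. Groups came from the sample labels. Ratios were compared by 2-sided exact permutation tests. The fit was also tested on simulated data with known changes. BH3 stretches came from GENCODE vM39. Gene names of the members matched 10 rows. All 10 members were named, and from each pathway list the 2 of lowest unadjusted p and the most abundant per kb, of which 1 gene is not reported here. The members and lists were chosen with earlier results of these data known. Alternatives were RLE, upper-quartile and total-count scaling, no low-count filter, a minimum of 10 counts in each mouse, protein-coding genes only, DESeq2, limma-voom, a replicate block, each mouse left out, Bexarotene 1 and 2 left out, and, chosen after seeing the data, no unnamed regions and canonical transcript lengths. For the ratios, no added counts and 1 count added to each gene were further alternatives. Mice of a group were separate animals.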

Additional observations from a re-analysis of the deposited data

How the results depend on the processing

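In every alternative, 0 members and 0 pathway genes passed the adjusted threshold. The count over all genes was 0 in every alternative but DESeq2, which called 3 of 25499 genes tested. Under scaling by total counts alone, the fold changes turned to −0.49 for *Bcl2l1*, −0.43 for *Mcl1*, −0.54 for *Bax*, −0.38 for *Bbc3*, −0.58 for *Pmaip1* and −0.45 for *Bad*, and the members' median to −0.49, beside a median of −0.66 over all genes. With the all-gene median subtracted, the values of these genes were above 0, as under TMM. They were 0.17, 0.24, 0.13, 0.28, 0.08 and 0.21 in this order. Without Bexarotene 1 and 2 the fold changes turned to −0.10 for *Bcl2l1*, −0.20 for *Mcl1*, −0.28 for *Bbc3* and 0.15 for *Bid*, and the ratio differences to 0.0453 (*Bax* to *Bcl2*) and 0.0437 (*Bcl2l11* to *Mcl1*). Limma-voom gave −0.0046 for *Bbc3*. The permutation test compared mean CPM, and the log2 ratio of the group mean CPM was −0.25 for *Bax*. With at least 10 counts in every mouse, 3 members were left, with a median of 0.56. The causes were not tested, apart from the smaller set of genes or mice.

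Leaving out 1 mouse at a time moved the members' median between 0.0832 and 0.27. It turned *Bcl2l1* (range −0.0240 to 0.58) and *Pmaip1* (−0.0884 to 0.55) without Bexarotene 1, *Bax* (−0.34 to 0.32) without Bexarotene 4 and, to −0.17, without Vehicle 2, and *Bcl2l11* (−0.19 to 0.0207) without Vehicle 2. *Mcl1* lay between 0.37 without Bexarotene 2 and 0.95 without Bexarotene 4, *Bbc3* between 0.25 without Bexarotene 2 and 0.92 without Bexarotene 4, *Bid* between −0.45 without Bexarotene 4 and −0.0434 without Bexarotene 2, *Bad* between 0.00437 without Bexarotene 4 and 0.24 without Vehicle 2, and *Bak1* between −0.26 without Bexarotene 4 and −0.10 without Vehicle 3.

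With the replicate number as a block (replicate block), *Bax* turned to −0.21, *Bcl2* was 0.74 and *Mcl1* 0.55. Deviations of same-numbered mice correlated between −0.0899 and 0.00149, and 0 of 4 bexarotene-treated mice correlated best with their own number. No pairing by number was seen, but 4 mice per group are too few to exclude one. The *Bax* to *Bcl2* ratio has no value without added counts. With 1 count added to each gene in place of 0.5, its difference was −0.74 (exact permutation test, p = 0.4). Genes with few counts in Bexarotene 1 and 2 (*Bax*, *Bad*, *Pmaip1*, *Bid*, *Bcl2l1*, *Bbc3*, *Bcl2l11*) carry a large counting error in these libraries.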

Other observations

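Several relatives of the family gave few or no counts in this tissue. *Bcl2a1c*, *Bcl2l10* and *Hrk* had 0 counts in every mouse. For *Bcl2l10* and *Hrk* this allows up to 0.102 to 1.27 CPM in the 4 bexarotene-treated mice (3 counts per library). In the 4 vehicle-treated mice it allows up to 0.0596 to 0.164 CPM. *Bik* had 2 counts in all and *Bcl2l15* 2. The guardians of the Bcl2a1 cluster, near-identical copies among which reads cannot be divided with confidence, had 27 counts (*Bcl2a1a*), 5 (*Bcl2a1b*) and 21 (*Bcl2a1d*) over the 8 mice. Reads that match more than 1 copy may be missing from these counts and from the 0 of *Bcl2a1c*, which sets no upper limit. *Bcl2l13*, whose exons overlap those of *Bid* on the other strand, had 1634 counts, with 9.54 ± 0.558 CPM with bexarotene and 9.34 ± 0.806 CPM with vehicle (SD, n = 4 each).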
